A study of Oryza sativa with 12 samples.

Results

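The genes described here make and break down abscisic acid (ABA) in rice embryos, and they were followed in the wild type and in the *Oslec1-1* mutant early and late in seed development. They are 9 of the 38978 genes in the count table, chosen by identifier: 1 gene of zeaxanthin epoxidase (ZEP), 5 of the dioxygenase NCED (9-cis-epoxycarotenoid dioxygenase) and 3 ABA 8′-hydroxylase genes. The count table holds identifiers without symbols, so the roles are those of the list of identifiers and the genes are called by identifier. Polyadenylated RNA was sequenced from embryos of Nipponbare (NIP), the wild type, and of *Oslec1-1*, a CRISPR/Cas9 line in the same background with a frameshift that shortens the predicted protein of *OsLEC1*, the rice gene for the seed maturation regulator LEC1. Both were sampled at 7 days after pollination (DAP), the early embryo (EE), and at 25 DAP, the late embryo (LE), with 3 replicates in each of the 4 groups and 12 libraries in all. No treatment is named in the labels, and whether the mutant embryos still carried the Cas9 transgene is not given in the sources used here. The mutant is a single line, each collection pooled many embryos, and the whole embryo was used, so fewer cells of a type and less RNA per cell cannot be told apart.

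ABA is formed from carotenoids. ZEP converts zeaxanthin to violaxanthin, NCED cleaves 9-cis-epoxycarotenoids to xanthoxin in the step that usually limits the rate of synthesis, and the 8′-hydroxylases, cytochrome P450 enzymes of the CYP707A family, start the main route of inactivation. In seeds the hormone is known for its part in maturation, desiccation tolerance and dormancy, and the balance of synthesis and breakdown sets its level.

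In late embryos, single genes of the breakdown and the synthesis step differed in transcript level between the genotypes, in opposite directions within each step. The summed NCED levels of the genotypes overlapped at LE, and the direction of the summed hydroxylase level depended on the unit. Transcripts of the hydroxylase gene *Os08g0472800* rose from EE to LE in the wild type, from a mean of 11.3 to 61.3 FPKM (fragments per kilobase of transcript, scaled to the mapped fragments of the library), whereas late *Oslec1-1* embryos held 6.79. Those of a second hydroxylase gene, *Os02g0703600*, rose with age in both genotypes and reached 335 FPKM in late *Oslec1-1* embryos against 89.6 in the wild type. Among the NCED genes, *Os02g0704000* was upregulated and *Os12g0617400* downregulated in late *Oslec1-1* embryos, and *Os03g0645900* was downregulated in early ones. The ZEP gene *Os04g0448900* was upregulated in *Oslec1-1* at both stages. Values by library follow for each gene, and the plot of FPKM by library gives all of them.

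**Figure D1:**
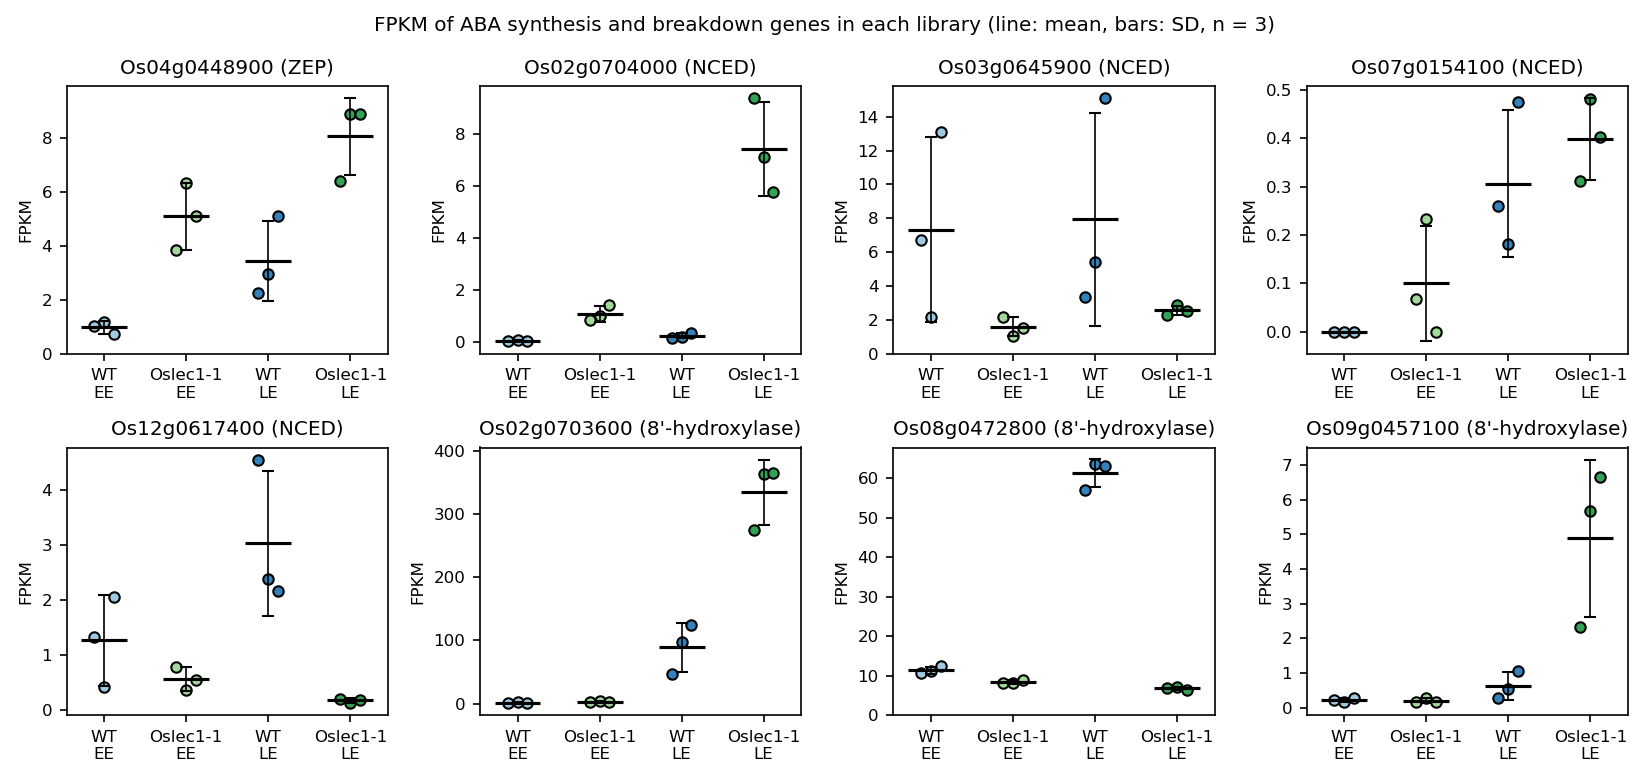
FPKM (vertical axes, linear, a scale for each gene) of the 8 genes with any signal at both stages, EE and LE, in wild type (WT) embryos and in *Oslec1-1*. Points are libraries, horizontal lines means and vertical bars SD (n = 3). *Os08g0472800* lay between 57.2 and 63.6 in late wild type embryos and at 12.4 or below in the other groups.

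Library totals lay between 16113922 and 27213238 counts. All 12 pairs of replicates differed by more than sampling noise, so none was counted as a duplicate. The factors of the trimmed mean of M-values (TMM), which correct for a difference in composition, were 0.69 to 0.74 in early wild type embryos and 1.04 to 1.18 in the other groups, so FPKM values, which do not hold this correction, are not on the same footing in early wild type embryos and elsewhere. The EE and LE libraries carry different library codes, and stage and code cannot be told apart. A frameshift need not lower the transcript of *OsLEC1*, and its counts were not analysed here. Of the 6 embryo markers listed, none is named by a source used here, and so the labelled tissue could not be checked by them.

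Of the markers of other tissues, 10 of 16 genes of the endosperm, all of them storage protein genes, and 2 of 4 of green leaf, both Lhcb1 genes of the light-harvesting antenna, could be named. Summed over the 10 endosperm markers, FPKM lay between 2331 and 3159 in early wild type embryos and between 32760 and 36500 in early *Oslec1-1* embryos. At LE the same sums were 40.8 to 113 and 75.1 to 664. The 2 Lhcb1 genes summed to 0.163 to 0.628 FPKM in early wild type and 161 to 176 in early *Oslec1-1* embryos, and to 1.82 to 3.39 against 205 to 266 at LE. No marker of either list was at 0 in a group. These lists were taken from terms that the study selected on these libraries, so they are not independent of the genotype difference, and their part in the results below was not tested.

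The counts and the FPKM values of these genes do not stand for the same stretch of RNA. Of the 9 genes, 8 overlap another gene model on IRGSP-1.0, and 7 lie under a model on the opposite strand that covers 57.6% to 93.1% of their span. *Os12g0435200* has no overlap and *Os04g0448900* overlaps a model on its own strand. An apparent counted length was computed for each gene as the number of bases that would make its library-scaled counts (CPM) equal its FPKM. For the hydroxylase gene *Os02g0703600* it was 43 bases, with 189 of the 2736 bases of the gene free of the opposite model. For *Os08g0472800* it was 892 bases with 964 free, and for *Os09g0457100* 760 with 914 free. The NCED genes gave 468 bases with 575 free (*Os02g0704000*), 422 with 579 (*Os03g0645900*), 374 with 658 (*Os07g0154100*) and 663 with 625 (*Os12g0617400*). The counts of the 7 genes therefore matched the length of the uncovered ends more nearly than that of the whole gene. Over all genes with a mean of at least 1 FPKM, the apparent length had a median of 68.6% of the span in 16697 genes without an overlap and 6.6% in 3387 genes covered to at least 50% by an opposite model. Whether the counting used strand is not given in the sources used here, and reads of a gene and of its antisense partner cannot be told apart without it. Both measures are therefore given below.

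**Figure D2:**
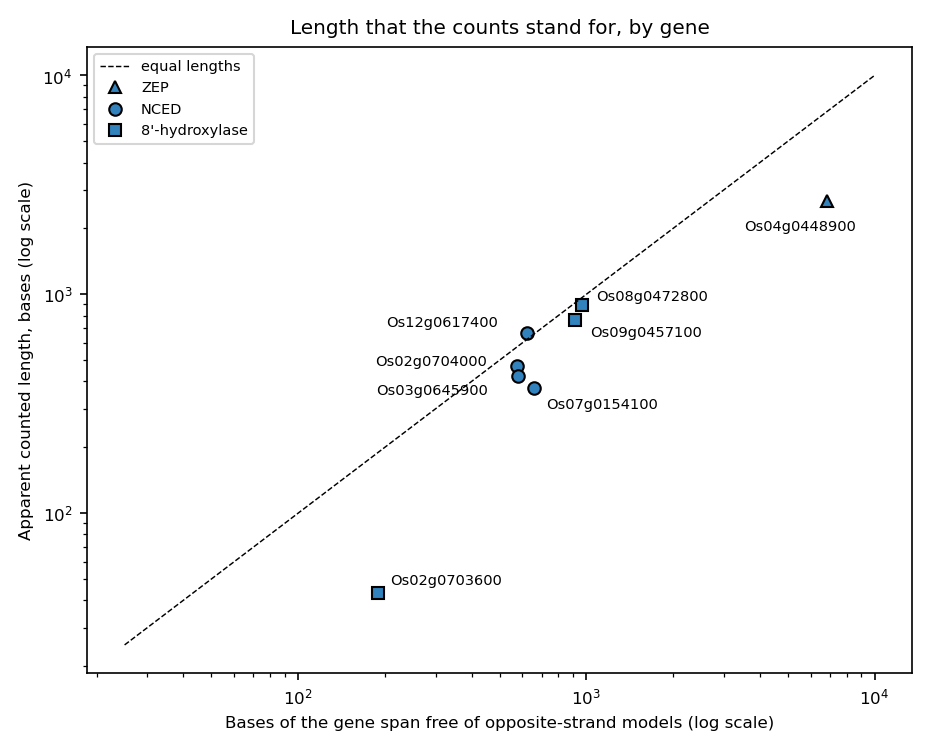
Apparent counted length (vertical axis, bases, log scale) against the bases of the gene span without an opposite-strand gene model (horizontal axis, bases, log scale). Each point is 1 gene, with the shape giving its role, and the dashed line marks equal lengths; *Os02g0703600* stands lowest, at 43 bases with 189 free.

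The first comparison asked which of these genes differ between *Oslec1-1* and the wild type at EE. A gene counts as changed at an adjusted *p* below 0.05 in edgeR. Of the 3 genes with enough counts to be tested at EE, 1 was upregulated, where 30.3% of all tested genes were, and 2 were downregulated, where 26.7% were. The median log2 fold change of the 3 was −0.72, and that of all tested genes was 0.03. With a further limit of 2 on the absolute log2 fold change, 1 of the 3 remained, against 14.8% of all tested genes. On FPKM divided by the TMM factor, 6 genes were tested and 5 changed, where 55.7% of all tested genes changed. At LE, 7 genes were tested with counts, of which 4 were upregulated (25.6% of all tested genes) and 2 downregulated (21.3%). Their median log2 fold change was 1.07 against 0.02 over all tested genes, and 4 of the 7 passed the fold limit too, against 9.53% of all tested genes. On scaled FPKM 6 of 7 changed at LE, with 46.5% of all tested genes. Several genes passed the filter through the group in which they were high, so these counts describe the tested genes and not the list of 9.

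**Figure D3:**
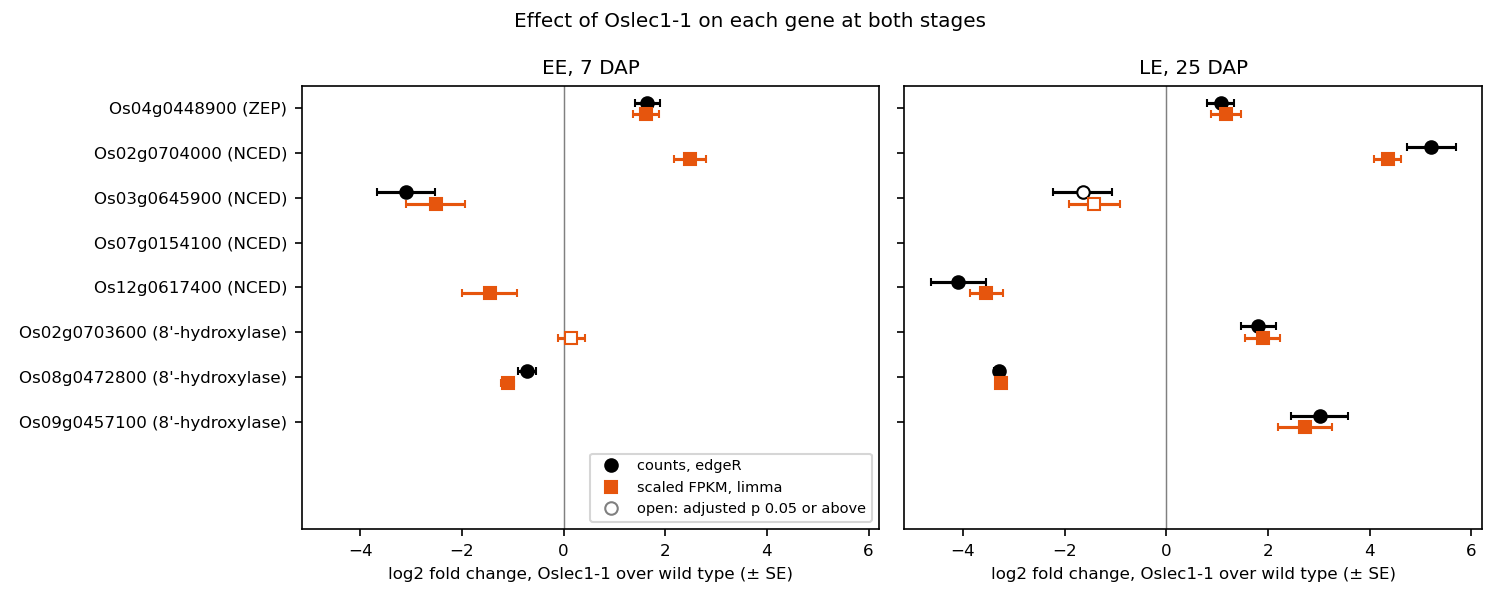
Log2 fold change of *Oslec1-1* over wild type (horizontal axes, bars SE) at EE and LE for the 8 genes with any signal, from counts with edgeR (circles) and from scaled FPKM with limma (squares). Filled symbols have an adjusted *p* below 0.05, and a gene without a symbol was not tested; *Os02g0704000* and *Os12g0617400* lie farthest apart at LE, at 5.21 and −4.09 by counts.

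The next comparisons asked how the genes change from EE to LE in each genotype and whether the mutant effect differs between the stages. In the wild type 5 genes were tested, of which 3 rose with age, where 29.3% of all tested genes rose, and 0 fell, where 29.1% fell. At an unadjusted *p* below 0.05 none of the 5 fell either, and DESeq2 also gave 0. Of the 5, 2 passed the fold limit (13.2% of all tested genes), and on scaled FPKM 3 of 5 changed (57.6%). In *Oslec1-1* 6 genes were tested, of which 5 rose (30% of all tested genes) and 1 fell (29.1%). The fold limit left 3 of these 6 (11.1%), and all 6 tested changed on scaled FPKM (58.4%). The interaction of genotype and stage was tested for 7 genes. The mutant effect was more positive at LE for 1 gene (16.7% of all tested genes) and more negative for 1 (16.7%), both past a difference of 2 on the log2 scale (7.97%). On scaled FPKM 5 of 7 genes passed the interaction test, where 34.9% of all tested genes did. Median log2 changes of the tested genes were 1.39 in the wild type, 2.65 in *Oslec1-1* and −0.61 for the interaction, against 0.018, 0.0037 and −0.044 over all tested genes. Here too genes passed the filter through the late group in which they were high. These were *Os02g0703600* in both genotypes, *Os12g0617400* in the wild type, and *Os02g0704000* and *Os09g0457100* in *Oslec1-1*. The wild type median of 1.39 is the value of *Os12g0617400*. A rise was the only change such genes could show, so these counts and medians describe the tested genes and not the whole list. *Os03g0645900* in *Oslec1-1* also needed its late libraries to pass the filter, with 12, 4 and 12 counts at EE against 28, 38 and 28 at LE.

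Of these enzymes the epoxidase acts first in the pathway. *Os04g0448900*, the ZEP gene, lies on chromosome 4 (22369763 to 22376615, plus strand). Its FPKM was 1.02, 1.19 and 0.72 in the 3 early wild type libraries and 3.86, 6.35 and 5.10 in early *Oslec1-1* embryos. At LE it was 2.26, 2.97 and 5.12 in the wild type and 6.41, 8.90 and 8.90 in *Oslec1-1*. The genotypes did not overlap at either stage, and in FPKM late *Oslec1-1* embryos were highest, narrowly so for replicate 1. By TMM-normalized CPM early *Oslec1-1* replicate 2 (14.98) was above late *Oslec1-1* replicate 1 (14.84). The log2 fold change was 1.65 ± 0.24 (SE, adjusted *p* = 0.000286, edgeR) at EE and 1.07 ± 0.27 (adjusted *p* = 0.0147) at LE. With library size only, the EE value was 2.32. The call at LE was lost without wild type LE replicate 2 (adjusted *p* = 0.0546), *Oslec1-1* LE replicate 2 (0.0509) or replicate 3 (0.0518), with log2 fold changes of 1.00, 1.01 and 1.00. From EE to LE the gene rose by 1.21 ± 0.31 in the wild type (adjusted *p* = 0.00863) and by 0.62 ± 0.20 in *Oslec1-1* (adjusted *p* = 0.0234) on the log2 scale. The rise in *Oslec1-1* did not pass in edgeR on all 12 libraries (adjusted *p* = 0.0568), nor without *Oslec1-1* EE replicate 1 (0.0715) or 3 (0.0781) or without *Oslec1-1* LE replicate 2 (0.0772) or 3 (0.0792). The mutant effect was not shown to differ between stages (interaction −0.61 ± 0.40, adjusted *p* = 0.269). A model on the same strand, *Os04g0448950*, shares 963 bases with the gene and had log2 fold changes of 0.92 ± 0.32 at EE and 0.93 ± 0.24 at LE, so part of the reads cannot be assigned to 1 of the 2 models.

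The 5 NCED genes had unlike patterns. *Os03g0645900*, on chromosome 3 (24959201 to 24961260, plus strand), had the highest mean FPKM of the NCED genes in the wild type at both stages, although *Os12g0617400* was above it in late wild type replicate 1. Its FPKM was 6.69, 2.18 and 13.1 in early wild type libraries and 2.17, 1.05 and 1.51 in early *Oslec1-1* libraries. Late wild type embryos gave 3.32, 5.39 and 15.1 and late *Oslec1-1* embryos 2.30, 2.85 and 2.50. The wild type replicates spread widely at both stages while those of *Oslec1-1* lay close together. In FPKM the lowest wild type library was above the highest *Oslec1-1* library at each stage, narrowly at EE. By TMM-normalized CPM the genotypes did not overlap at EE, where these libraries were at 1.28 and 0.539. They overlapped at LE, where wild type replicate 1 was below *Oslec1-1* replicate 2 (1.46). By counts the gene was downregulated at EE (log2 fold change −3.10 ± 0.57, adjusted *p* = 0.00112, edgeR). Scaled FPKM gave −2.52 ± 0.59, and library size only −2.42. At LE it did not pass the test (−1.65 ± 0.58, adjusted *p* = 0.0503). At LE it passed without a filter, with RLE factors, with TMM computed without the 50 most abundant genes and with a replicate block. It also passed in DESeq2, in edgeR on all 12 libraries and without wild type LE replicate 1, where the log2 fold change was −2.01. Over all its alternatives the adjusted *p* lay between 0.00903 and 0.131. Without wild type LE replicate 3, the highest library, the log2 fold change was −0.76 (adjusted *p* = 0.121).

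Between the stages *Os03g0645900* was not shown to change in the wild type, with a log2 fold change of −0.05 ± 0.63 (adjusted *p* = 0.954) whose sign depended on the processing. In *Oslec1-1* it rose by 1.41 ± 0.41 (adjusted *p* = 0.0166) by counts and by 0.70 ± 0.25 by scaled FPKM. This rise did not pass without *Oslec1-1* LE replicate 2 (adjusted *p* = 0.0661) or in edgeR on all 12 libraries (0.114). In limma without the TMM factor it did not pass on the log2 of FPKM plus 0.1 (0.0501). Nor did it pass on that of FPKM plus 1 without the filter (0.0676). The interaction was 1.44 ± 0.92 (adjusted *p* = 0.254) and passed only without wild type LE replicate 3 among its alternatives (2.35, adjusted *p* = 0.0334).

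*Os02g0704000*, on chromosome 2 (29026099 to 29028176, minus strand), was the NCED gene with the highest level in late mutant embryos. It gave 0.042, 0.077 and 0.046 FPKM in early wild type libraries and 0.843, 1.01 and 1.42 in early *Oslec1-1* libraries. At LE the wild type had 0.176, 0.214 and 0.354 FPKM and *Oslec1-1* 9.37, 7.09 and 5.78. In FPKM none of the groups overlapped, and the order was early wild type, late wild type, early *Oslec1-1* and late *Oslec1-1*. By TMM-normalized CPM early wild type (0 to 0.085) and late wild type (0 to 0.163) overlapped. Counts were few outside late *Oslec1-1* embryos: 1, 1 and 0 in early wild type, 4, 4 and 6 in early *Oslec1-1* and 0, 2 and 4 in late wild type libraries, against 108, 90 and 76 in late *Oslec1-1* libraries. The log2 fold change at LE was 5.21 ± 0.48 (adjusted *p* = 0.000191, edgeR) by counts and 4.35 ± 0.27 by scaled FPKM, and by counts it was 6.08 without wild type LE replicate 3. At EE the gene had too few counts for the edgeR filter. Scaled FPKM gave 2.49 ± 0.31 there (adjusted *p* = 0.000311, limma), and the FPKM fits without the TMM factor passed too. The count fits that kept the gene did not pass, at 1.90 without a filter (adjusted *p* = 0.175), 2.05 in DESeq2 (0.272) and 1.92 in edgeR on all 12 libraries (0.0732). Within *Oslec1-1* it rose with age by 3.90 ± 0.29 (adjusted *p* = 1.38e-05) by counts and 2.65 ± 0.24 by scaled FPKM. The interaction was 3.25 ± 1.41 by counts (adjusted *p* = 0.0945), and it passed in DESeq2 (adjusted *p* = 0.0454), on scaled FPKM (1.73 ± 0.39, adjusted *p* = 0.00557) and without wild type LE replicate 3 (4.13, adjusted *p* = 0.0474).

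*Os12g0617400*, on chromosome 12 (26269318 to 26270792, plus strand), went the other way. Its FPKM was 1.33, 0.409 and 2.06 in early wild type and 0.782, 0.355 and 0.550 in early *Oslec1-1* libraries, and these groups overlapped. At LE it was 4.55, 2.38 and 2.16 in the wild type and 0.198, 0.127 and 0.188 in *Oslec1-1*. In FPKM every late wild type library was thus above every other library, narrowly so for early wild type replicate 3, and every late *Oslec1-1* library below. By TMM-normalized CPM early wild type replicate 3 (1.71) was above late wild type replicates 2 (1.63) and 3. The late *Oslec1-1* libraries were lowest in CPM too. The log2 fold change at LE was −4.09 ± 0.55 by counts (adjusted *p* = 0.00097, edgeR) and −3.54 ± 0.33 by scaled FPKM. At EE the gene had too few counts for the edgeR filter, and scaled FPKM gave −1.45 ± 0.54 (adjusted *p* = 0.0498, limma). No other fit gave that call: the counts gave −1.39 without a filter (adjusted *p* = 0.128), −1.44 in DESeq2 (0.154) and −1.40 in edgeR on all 12 libraries (0.106), and FPKM without the TMM factor gave adjusted *p* of 0.127 to 0.182. In the wild type the rise with age was 1.39 ± 0.66 (adjusted *p* = 0.0984), and 2.50 without wild type EE replicate 3 (adjusted *p* = 0.0202). The interaction was −2.70 ± 1.01 (adjusted *p* = 0.0577), and it passed without wild type EE replicate 3 (−3.82, adjusted *p* = 0.00904) or wild type LE replicate 3 (−2.96, adjusted *p* = 0.0419) and in DESeq2 (0.0356). It also passed with library size only (−3.26, adjusted *p* = 0.0153), on scaled FPKM (−2.05 ± 0.70, adjusted *p* = 0.0413) and on FPKM without the TMM factor (adjusted *p* = 0.00773 to 0.024).

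The antisense model over this gene, *Os12g0617250*, had more counts than the gene itself in late wild type embryos. It had 155, 104 and 111 counts there against 66, 44 and 33 of *Os12g0617400*, and 11, 8 and 6 in late *Oslec1-1* embryos. Its log2 fold change was −3.28 ± 0.52 at EE (adjusted *p* = 0.000451) and −4.17 ± 0.40 at LE (adjusted *p* = 0.000224). The signal of the locus fell in late *Oslec1-1* embryos in both models, but its division between the strands is uncertain.

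The remaining NCED genes gave little or no signal. *Os07g0154100*, on chromosome 7 (2870686 to 2872829, plus strand), was listed at 0 FPKM in early wild type embryos and had 0.067, 0.233 and 0 FPKM in early *Oslec1-1* libraries. Late wild type libraries gave 0.261, 0.181 and 0.475 FPKM and late *Oslec1-1* libraries 0.311, 0.481 and 0.402, which overlapped. It had counts in 4 libraries, all late, with at most 8. *Os12g0435200*, on chromosome 12 (14232905 to 14234854, minus strand), had 0 counts and was listed at 0 FPKM in all 12 libraries. At these depths 0 counts leave room for a share of up to 1.1e-05% to 1.86e-05%, the share of 3 counts.

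The NCED genes were also summed. In FPKM the sums were 8.06, 2.67 and 15.2 in early wild type and 3.86, 2.65 and 3.48 in early *Oslec1-1* libraries, and 8.31, 8.16 and 18.1 against 12.2, 10.6 and 8.87 at LE. These sums overlapped between the genotypes at both stages. Divided by the TMM factor they were 10.8, 3.67 and 22.2 against 3.29, 2.41 and 2.95 at EE, where they did not overlap, and 8.00, 7.69 and 17.1 against 10.6, 9.22 and 7.67 at LE, where they did. In FPKM the shares of *Os03g0645900* and *Os02g0704000* in the sum did not overlap between the genotypes at either stage. *Os03g0645900* made 83.6% ± 2.26 of the sum in early wild type embryos (SD, n = 3) and 63.2% ± 21.9 in late ones, and 46.4% ± 8.62 and 24.7% ± 5.04 in *Oslec1-1*. The share of *Os02g0704000* was 1.23% ± 1.43 and 2.23% ± 0.35 in the wild type at EE and LE, and 33.6% ± 10.3 and 69.8% ± 6.26 in *Oslec1-1*. In CPM the shares of *Os03g0645900* overlapped at LE, at 27.5% in wild type replicate 1 and 27.9% in *Oslec1-1* replicate 2. Shares within a library do not depend on the TMM factor.

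**Figure D4:**
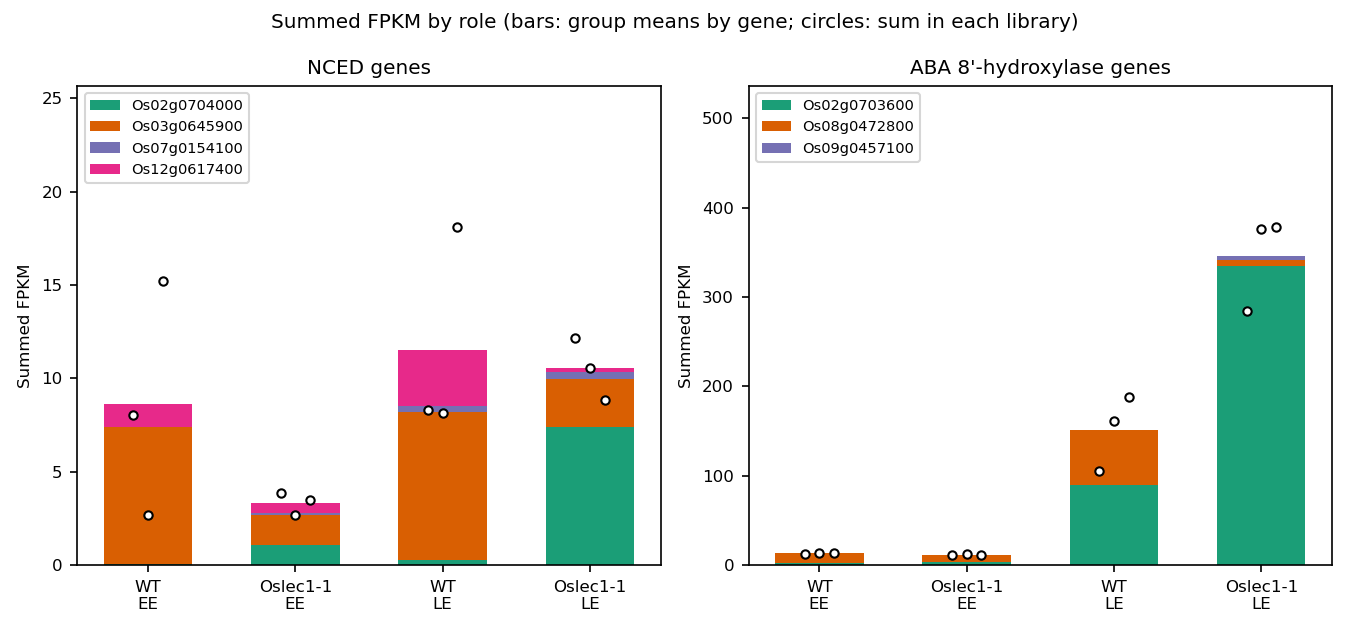
Summed FPKM (vertical axes, from 0) of the NCED genes and of the ABA 8′-hydroxylase genes in the 4 groups. Stacked bars are group means by gene and circles the sum in each library (n = 3); the NCED sums of the genotypes overlap at both stages before division by the TMM factor, and the hydroxylase sums lie between 284 and 378 in late *Oslec1-1* embryos, mostly from *Os02g0703600*.

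Each hydroxylase gene responded in its own way. *Os08g0472800*, on chromosome 8 (23288613 to 23294162, minus strand), had the smallest SE of the 7 genes tested at LE. Its FPKM was 10.5, 11.1 and 12.4 in early wild type and 8.11, 8.07 and 8.98 in early *Oslec1-1* libraries. At LE it was 57.2, 63.6 and 63.2 in the wild type and 6.86, 7.15 and 6.37 in *Oslec1-1*. No group overlapped another, and late wild type embryos stood far above the rest. The log2 fold change at LE was −3.30 ± 0.09 (adjusted *p* = 2.02e-06, edgeR), and between −3.34 and −3.00 under all its alternatives. In the wild type the gene rose from EE to LE by 2.15 ± 0.13 (adjusted *p* = 3.77e-06), and the mutant effect was more negative at LE (interaction −2.60 ± 0.18, adjusted *p* = 7.07e-07), which passed under every alternative run, at −3.16 to −2.18.

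By counts the difference of *Os08g0472800* at EE rested on the scaling. Counts were 159, 122 and 171 in early wild type and 159, 131 and 181 in early *Oslec1-1* libraries, nearly the same before scaling. With TMM the log2 fold change was −0.72 ± 0.17 (adjusted *p* = 0.00486), and with library size only it was −0.03 (adjusted *p* = 0.866). Library size alone also moved the median of all genes at EE from 0.03 to 0.71, so relative to that median the gene was lower under both scalings. Scaled FPKM gave −1.10 ± 0.12. FPKM without the TMM factor passed too. It gave −0.39 on the log2 of FPKM plus 1 (adjusted *p* = 0.0092, limma) and −0.43 on that of FPKM plus 0.1 (0.0091). In *Oslec1-1* the gene fell slightly with age, with a log2 fold change of −0.45 ± 0.15 (adjusted *p* = 0.0321). This call was lost without *Oslec1-1* EE replicate 3 (adjusted *p* = 0.102) or without *Oslec1-1* LE replicate 1 (0.0871), 2 (0.0562) or 3 (0.0704). It was also lost on the log2 of FPKM plus 1 without the filter (0.0511, limma).

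*Os02g0703600*, on chromosome 2 (28995717 to 28998452, plus strand), reached the highest FPKM of the 9 genes. It gave 1.42, 2.34 and 1.37 FPKM in early wild type and 2.64, 3.76 and 2.61 in early *Oslec1-1* libraries. At LE the values were 47.6, 96.9 and 124 in the wild type and 275, 363 and 365 in *Oslec1-1*. Late *Oslec1-1* embryos thus stood above late wild type embryos, and both far above the early ones. Its counts were 0 in all early wild type libraries, 3, 0 and 0 in early *Oslec1-1*, 31, 107 and 126 in late wild type and 321, 377 and 342 in late *Oslec1-1* libraries, few beside such FPKM values, with an apparent counted length of 43 bases. At LE the log2 fold change was 1.81 ± 0.34 (adjusted *p* = 0.00456, edgeR) by counts and 1.89 ± 0.34 by scaled FPKM. Against a floor of 3 counts per library, late wild type embryos were at least 22.4-fold higher than early ones by CPM scaled by library size only. With the TMM factors, which are smaller in early wild type libraries, this bound would be lower. In *Oslec1-1* the counts summed to 3 at EE and 1040 at LE, a ratio of 273 after correction for library size with a counting interval of 93.2 to 1330. Scaled FPKM rose with age by 5.01 ± 0.35 in the wild type and by 6.75 ± 0.19 in *Oslec1-1* on the log2 scale.

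At EE the genotypes did not overlap in the FPKM of *Os02g0703600*, but scaled FPKM gave a log2 fold change of 0.15 ± 0.27 (adjusted *p* = 0.658, limma) against 0.80 (adjusted *p* = 0.0228) without the TMM factor. The interaction had no fixed sign. It was −1.35 ± 2.00 by counts (adjusted *p* = 0.639), where early values rest on 3 counts, and 1.71 ± 0.45 by scaled FPKM (adjusted *p* = 0.0121). The antisense model *Os02g0703700*, which covers 93.1% of the gene, had a mean of 2.82 FPKM in late wild type and 9.64 in late *Oslec1-1* embryos.

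*Os09g0457100*, on chromosome 9 (17252034 to 17255420, minus strand), was the lowest of the hydroxylase genes by mean FPKM in each group. It gave 0.226, 0.155 and 0.264 FPKM in early wild type and 0.153, 0.272 and 0.172 in early *Oslec1-1* libraries. At LE it gave 0.263, 0.544 and 1.07 in the wild type and 2.33, 5.66 and 6.67 in *Oslec1-1*. The early groups overlapped, and every late *Oslec1-1* library was above all other libraries. The log2 fold change at LE was 3.01 ± 0.56 (adjusted *p* = 0.00427, edgeR) by counts and 2.72 ± 0.53 by scaled FPKM, and by counts it was 3.76 without wild type LE replicate 3. Within *Oslec1-1* the gene rose with age by 4.68 ± 0.65 (adjusted *p* = 0.000372), and by 5.55 without *Oslec1-1* EE replicate 2. The interaction was 3.89 ± 1.21 by counts (adjusted *p* = 0.026), with few counts at EE, and 3.22 ± 0.65 by scaled FPKM (adjusted *p* = 0.00286). By counts it did not pass without wild type EE replicate 1 (3.73, adjusted *p* = 0.0859) or 3 (3.85, adjusted *p* = 0.0633), and it was 4.66 without wild type LE replicate 3 and 4.75 without *Oslec1-1* EE replicate 2.

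The summed level of the hydroxylase genes depended on the unit. Together they gave 12.2, 13.6 and 14.0 FPKM in early wild type and 10.9, 12.1 and 11.8 in early *Oslec1-1* libraries. At LE the sums were 105, 161 and 188 in the wild type and 284, 376 and 378 in *Oslec1-1*, without overlap. In TMM-normalized CPM the order at LE was the opposite, with 53.9, 58.1 and 58.4 in the wild type and 16.8, 24.4 and 22.2 in *Oslec1-1*, also without overlap. The units weigh *Os02g0703600* differently, the gene with an apparent counted length of 43 bases. It made 57.1% ± 10.6 of the FPKM sum in late wild type embryos (SD, n = 3), from 45.3% to 65.9%, and 96.6% ± 0.113 in late *Oslec1-1* embryos, but 3.11% to 8.79% and 58.6% to 60.9% of the CPM sum. No direction is therefore given for the summed hydroxylase level at LE. *Os08g0472800* made 85.5% ± 3.42 of the FPKM sum in early wild type and 72.5% ± 5.08 in early *Oslec1-1* embryos, 42.5% ± 10.8 in late wild type and 2.0% ± 0.376 in late *Oslec1-1* embryos. Of the CPM sum it made 90.0% to 96.7% in late wild type and 23.1% to 28.7% in late *Oslec1-1* embryos. In FPKM the hydroxylase sum per NCED sum was 0.92 to 5.11 in early wild type and 2.83 to 4.56 in early *Oslec1-1* libraries, which overlapped. It was 10.4 to 19.7 in late wild type and 23.3 to 42.7 in late *Oslec1-1* libraries, which did not. In CPM the same ratio at LE went the other way, from 6.63 to 13.7 for the wild type but only 3.76 to 5.21 for *Oslec1-1*. These are ratios of transcript levels, and ABA itself was not measured in these libraries.

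The order of the 4 group means by FPKM was the same by TMM-normalized CPM in 6 of the 8 genes with signal. It changed in *Os03g0645900*, in which early and late wild type embryos exchanged places, and in *Os07g0154100*, in which the late groups did, and in each case the exchanged groups overlapped. For the 3 genes with the highest mean CPM, the genes of most similar profile over the 12 libraries were found by the root mean square difference of centred log2(CPM + 1). The nearest to *Os08g0472800* were *Os01g0912700* (0.442), *Os06g0647500* (0.491) and *Os01g0136200* (0.518). *Os01g0912700* had mean CPM of 8.47, 5.31, 43.6 and 8.03 in early wild type, early *Oslec1-1*, late wild type and late *Oslec1-1* embryos. Nearest to the ZEP gene *Os04g0448900* were *Os04g0636100* (0.197), *Os03g0752300* (0.208) and *Os07g0629000* (0.211). Those nearest to *Os02g0703600* were *Os01g0194000* (0.243), *Os01g0794600* (0.272) and *Os09g0135800* (0.282).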

How the data were processed

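The authors trimmed reads with Trimmomatic 0.36, mapped them to IRGSP-1.0 with HISAT2 2.1.0 and assembled transcripts with StringTie 1.3.4d, and they deposited whole-number counts per gene, whose counting program is not given in the sources used here. The authors also deposited 3 StringTie measures for each gene, FPKM, TPM and coverage, and neither TPM nor coverage was used here. Library totals of 16113922 to 27213238 counts set the precision, and the floor of 3 counts and the counting interval cover counting error only. Libraries were grouped by their labels, and the study calls the replicates biological, though no label names separate plants.

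Counts were tested in R 4.3.3 with edgeR 4.0.16 (filterByExpr, TMM, quasi-likelihood test, Benjamini-Hochberg adjustment over all tested genes) on the 6 libraries of a comparison, and on all 12 for the interaction. SE is the absolute log2 fold change over the root of F. The alternatives changed the filter (none, or 10 counts required of every library), the scaling (RLE, library size alone, or TMM computed with the 50 most abundant genes removed), the tool (DESeq2 1.42.0), the libraries fitted (all 12, or 1 replicate fewer), the design (a replicate block), the unit (limma 3.58.1 on the log2 of FPKM plus 1 or plus 0.1, for genes at 0.5 FPKM or more in 3 libraries, and for all genes) and the call (glmTreat at a log2 fold of 2). Limma on log2(FPKM / TMM factor + 0.1), called scaled FPKM, was added after the data were seen, as were sums by role in CPM and scaled FPKM, and a fold change on a scale with an added constant understates low genes. Scripts were tested on simulated data.

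The members and lists were chosen with earlier results of these data known. All 9 members are named, with the 3 nearest profiles of the 3 genes of highest mean CPM, sought among genes averaging 5 CPM or more. A list of other genes of ABA synthesis and signalling could not be matched, since 0 members and no listed gene are paired with a name by the RefSeq table used, which is of another assembly.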

Additional observations from a re-analysis of the deposited data

Results flagged for a closer look

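For 2 genes the effect of *Oslec1-1* differed between the stages by the interaction test in edgeR. The hydroxylase gene *Os08g0472800* had an interaction of −2.60 on the log2 scale (adjusted *p* = 7.07e-07), with log2 fold changes of −0.72 at EE and −3.30 at LE. All 3 late wild type libraries were above all others. The hydroxylase gene *Os09g0457100* had an interaction of 3.89 (adjusted *p* = 0.026), on 0 to 5 counts per library at EE, and this did not pass without wild type EE replicate 1 (adjusted *p* = 0.0859) or replicate 3 (0.0633).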

How the results depend on the processing

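The LE difference of *Os08g0472800* and its interaction, and the LE differences of *Os02g0704000*, *Os12g0617400*, *Os02g0703600* and *Os09g0457100*, kept their direction and had an adjusted *p* below 0.05 under every alternative that tested them against no change. Over all genes and alternatives, 471 log2 fold changes kept their direction and side of the threshold, 29 lost the call, 29 gained one and 13 changed sign. Numbers of genes past the test depended more on the setting, and causes were not tested unless stated. With at least 10 counts in every library, which leaves fewer genes to test, 1 gene was lower at EE, 2 were higher and 1 lower at LE, 1 rose in *Oslec1-1*, and 0 had a positive interaction. With library size only, 1 gene was lower at EE and 3 had a negative interaction. DESeq2 gave 2 positive and 2 negative interactions, and edgeR on all 12 libraries gave 3 genes that rose in *Oslec1-1*. On log2(FPKM + 1), with or without the filter, and on log2(FPKM + 0.1), 3 genes were higher at EE, with 3 positive and 2 negative interactions, and without the filter 5 rose in the wild type. On scaled FPKM 2 genes were higher at EE, with 3 positive and 2 negative interactions. The glmTreat test at a log2 fold of 2 left 0 genes at EE, 3 at LE, 1 in the wild type stage effect, 3 in that of *Oslec1-1* and 1 interaction, against 1, 4, 2, 3 and 2 past both limits.

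The stage effect of *Os03g0645900* in the wild type (−0.05) changed sign with library size only (0.54), log2(FPKM + 1) with and without the filter (0.12) and log2(FPKM + 0.1) (0.16), and was −0.93 to 0.50 with replicates left out. The interaction of *Os02g0703600* (−1.35) became 0.19 in DESeq2, 1.41 on log2(FPKM + 1) with and without the filter, 1.20 on log2(FPKM + 0.1) and 1.71 on scaled FPKM, and was −1.88 to 1.79 with replicates left out. At LE the log2 ratio of mean hydroxylase sums, *Oslec1-1* over wild type, was 1.19 in FPKM and −1.43 in CPM, and that of hydroxylase per NCED was 1.25 and −1.20. With each replicate left out, 3 to 5 genes rose and 0 to 1 fell in *Oslec1-1*, and 0 to 3 had a positive and 1 to 2 a negative interaction. The highest interaction count came without wild type LE replicate 3 (3 positive, 2 negative), and 0 were positive without wild type EE replicate 1 or 3. Library size only moved the median of all genes from 0.03 to 0.71 at EE, from 0.02 to 0.58 for the wild type stage effect and from −0.04 to −0.59 for the interaction, with 14986 genes higher and 2061 lower at EE against 6979 and 6150 with TMM, 12370 and 3177 against 6491 and 6434 for the wild type stage effect, and 1881 and 10847 against 4155 and 4166 for the interaction. Replicate numbers are shared between groups, but same-numbered libraries did not deviate together in every pair of genotypes (correlations of −0.089 to 0.155 at EE and −0.044 to 0.528 at LE). Between the stages their correlations were 0.022 to 0.124. Not every library correlated best with its own number, and whether same-numbered libraries shared a collection was not tested. The replicate block changed 1 call, *Os03g0645900* at LE (−1.39, adjusted *p* = 0.042), and so gave 3 genes lower at LE, against 2.

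Depth limits several of the genes: counts of at most 6 per library stand behind *Os02g0704000* outside late *Oslec1-1* embryos, and *Os02g0703600* had 3 counts in all at EE.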
